A study of Mus musculus with 4 samples.

Results

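The genes described here are the mouse heat shock protein and J-protein genes: the HSP70 (Hspa), HSP110 (Hsph1), HSP90 (Hsp90), small heat shock protein (Hspb), chaperonin (Hspd1 and Hspe1) and DNAJ (Dnaja, Dnajb and Dnajc) genes, taken by the form of their symbols. The table lists 50559 genes, and 70 of them have such a symbol. By the known place of their products, 36 were assigned to the cytosol, 14 to the endoplasmic reticulum (ER), 10 to mitochondria and 10 to other places such as endosomes and the nucleus. RNA-seq was compared between mouse embryonic stem cells (ESCs, line E14) that received an siRNA against Cnot1 (siCnot1) and cells of the same line that received a control siRNA without a target (siNT). Each group had 2 libraries, which the study's methods call independent biological replicates. Both groups received siRNA at 150 nM, were kept on gelatin in serum replacement medium with leukemia inhibitory factor, and were collected after 48 h. CNOT1 holds together CCR4-NOT, a complex that shortens the poly(A) tails of mRNAs. The comparison shows which mRNAs changed in level relative to the other mRNAs of the library when that scaffold was depleted. Genes said below to rise or fall did so on this relative scale. Total mRNA per cell and the capture of mRNAs by tail length were not measured in these poly(A)+ libraries. The labels name no further genotype, the study describes its ESCs as carrying a tdTomato reporter under the MERVL promoter, and of the 2 siRNAs it lists against Cnot1 it does not say which was used.

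Chaperones bind unfolded stretches of other proteins and help them fold, cross membranes or be degraded. HSP70 proteins work through cycles of ATP hydrolysis that J-proteins start and nucleotide exchange factors such as the HSP110 proteins end, HSP90 proteins receive clients from HSP70, and the chaperonin HSP60 with its lid HSP10 encloses proteins in the mitochondrial matrix. Each compartment has its own set of genes. Heat shock factor HSF1 is the best known activator of the cytosolic set and the unfolded protein response (UPR) of the ER set. ESCs are known for high levels of the constitutive cytosolic chaperones.

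Library totals on genes lay between 32135824 and 32557440 counts, at which 3 counts equal 0.0921 to 0.0934 CPM (counts relative to the library total). Levels below are counts scaled by edgeR's TMM method and given as normalized CPM, and each adjusted p is that of edgeR's quasi-likelihood test, adjusted after Benjamini and Hochberg over the 18144 genes that passed a filter on low counts. Cnot1 itself fell from 913 and 986 normalized CPM in the siNT libraries to 185 and 192 in the siCnot1 libraries, which is 19.8% of the control mean (log2 fold change -2.33, standard error 0.0587, edgeR adjusted p = 2.37e-18). All 6 ESC markers examined were detected, with a summed level of 4364 to 4470 normalized CPM in siNT and 3760 to 3984 in siCnot1. Of them 4, among them Pou5f1 and Nanog, were called lower. All 6 are above 100 normalized CPM, where 43.7% of all genes fell. Summed markers of fibroblasts, primitive endoderm and neural cells stayed at or under 31.8 normalized CPM in every library, and Col3a1 was at 0 throughout. Within these lists the fibroblast marker Col1a1 was higher, at 1.25 and 1.53 normalized CPM in siNT against 3.46 and 3.91 in siCnot1 (log2 fold change 1.403, edgeR adjusted p = 5.41e-04), and the neural marker Pax6 was lower, at 4.47 and 4.12 against 2.33 and 2.60 (log2 fold change -0.80, edgeR adjusted p = 0.015). The neural markers Sox1 and Nes were not called, at log2 fold changes of -0.36 and 0.09. The 5 trophectoderm markers summed to 20.8 and 23.1 in siNT against 11.5 and 11.3 in siCnot1, led by Krt8 and Krt18, the only ones called. Gata3 (log2 fold change -0.61) and Cdx2 (0.74, at most 0.598 normalized CPM in any library) were not called, and Elf5 had too few counts to be tested. Mitochondrially encoded RNA took 1.17% and 1.401% of counts in siNT and 2.11% and 1.76% in siCnot1. The part of these shifts in the results below was not tested, and in bulk RNA fewer cells with a transcript and less transcript per cell cannot be told apart.

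The chaperone genes did not move as one family. Of the 70 genes, 66 had enough counts to be tested, and 10 of them rose and 17 fell in siCnot1 at an adjusted p under 0.05. Over all tested genes 15.0% rose and 14.7% fell (29.7% in either direction), against 15.2% and 25.8% of the tested chaperone genes. Changes were small, with a median log2 fold change of -0.07 beside 0.0084 over all tested genes, and a range from -1.06 for Hspb8 to 1.00 for Dnajc22, the only members past 2-fold. They were also the only members at the study's threshold, an unadjusted p of at most 0.05 with at least a 2-fold change, which 6.18% of all tested genes passed upward and 1.80% downward. By compartment, 3 cytosolic genes rose and 12 fell, 6 ER genes rose and 0 fell, and 0 mitochondrial genes rose and 3 fell. The difference between compartments was not itself tested. Both siCnot1 libraries lay above both siNT libraries for 18 members and below both for 27, where the shares over all tested genes were 32.7% and 31.2%. Scaling by library totals alone raised the median of all tested genes to 0.12. That scaling changed the share of higher calls among called chaperone genes from 37.0% to 63.0%, and among all called genes from 50.5% to 71.9%. Without siNT replicate 1, siNT replicate 2, siCnot1 replicate 1 or siCnot1 replicate 2 the higher calls were 0, 1, 3 and 4 and the lower calls 9, 7, 8 and 12. Relative to the median of all tested genes, the cytosolic median stood at -0.21 and the ER median at 0.21 under both scalings. A change of scaling moves all genes by nearly the same amount, which this subtraction removes. The agreement was therefore fixed in advance and is no check on the calls.

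**Figure D1:**
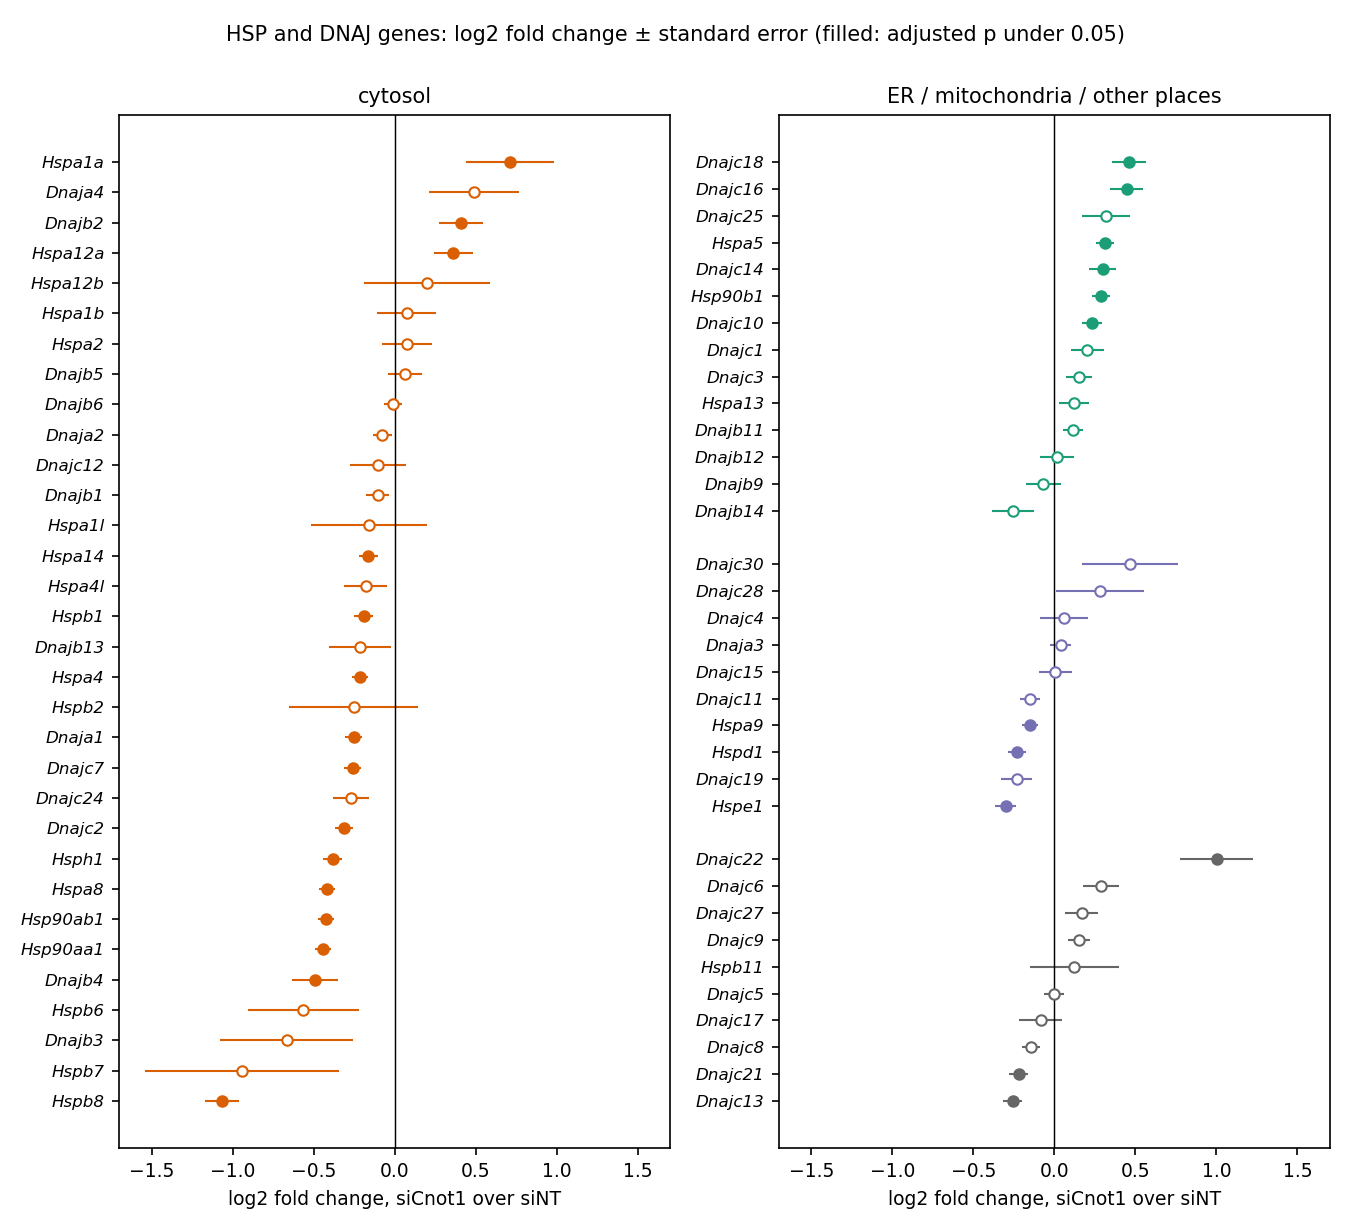
Log2 fold change of siCnot1 over siNT (horizontal axis) for the 66 tested chaperone genes, sorted within compartments; points are edgeR estimates, bars standard errors, and filled points have an adjusted p under 0.05. Cytosolic genes lie mostly left of 0 (24 of 32), ER genes mostly right of it (12 of 14), and the 3 filled mitochondrial genes are all left of it.

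The 4 members that could not be tested were all cytosolic. Dnajb8 had 0 counts in every library, which allows at most 0.0934 CPM. Dnajb7 had 1 and 2 counts in siNT and 4 and 16 in siCnot1, Hspb3 had 0 and 13 against 6 and 8, and Hspb9 had 14 and 6 against 4 and 9. The counts of Hspb3 and Hspb9 overlapped between the groups, and those of Dnajb7 were too few for a fold change to be read.

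Hsp90ab1, Hsp90aa1 and Hspa8, all cytosolic, were the most abundant members and fell by about the same amount. Hsp90ab1, the constitutive cytosolic HSP90 (GRCm39 chromosome 17, 45878704 to 45884187, minus strand), stood at 9755 and 9254 normalized CPM in siNT and at 6892 and 7273 in siCnot1. Hsp90aa1, its stress-inducible paralog (chromosome 12, 110657470 to 110662829, minus strand), stood at 5348 and 5346 against 3930 and 3928. Hspa8, the constitutive HSP70 also called HSC70 (chromosome 9, 40712572 to 40716498, plus strand), stood at 2924 and 2995 against 2182 and 2245. In all 3 genes both siCnot1 libraries lay under both siNT libraries, at 74.5%, 73.5% and 74.8% of the control mean in the order given. The log2 fold change of Hsp90ab1 was -0.42 (standard error 0.051, edgeR adjusted p = 1.20e-06), that of Hsp90aa1 was -0.44 (standard error 0.0492, edgeR adjusted p = 3.85e-07) and that of Hspa8 was -0.42 (standard error 0.0506, edgeR adjusted p = 1.28e-06). On the RPKM scale, normalized CPM per kilobase of exon, which allows levels of genes to be compared, these were the 3 most abundant chaperone genes in siNT, at 3791, 1876 and 1407. They kept their call under every alternative run except the study's 2-fold threshold.

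Of the HSP110-type partners that restart the HSP70 cycle, Hsph1 and Hspa4 were lower and Hspa4l was not called. Hsph1 and Hspa4 are above 100 normalized CPM, where 43.7% of all genes fell. Hsph1, an HSP110 protein that exchanges the nucleotide of HSP70, measured 338 and 315 normalized CPM in siNT and 248 and 253 in siCnot1 (log2 fold change -0.38, standard error 0.0569, edgeR adjusted p = 1.83e-05). Hspa4, a second exchange factor of the same kind, measured 1239 and 1279 against 1077 and 1095 (log2 fold change -0.21, standard error 0.0517, edgeR adjusted p = 0.00293), a call lost under library totals and in 3 of the 4 fits that leave out a library (edgeR adjusted p up to 0.0975). The groups did not overlap for either gene. Hspa4l, a close relative of Hspa4 at a far lower level, measured 17.1 and 13.6 against 14.3 and 12.8, with overlapping groups and an edgeR adjusted p of 0.344.

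Among cytosolic J-proteins, 4 fell, 1 rose and 9 were not called, of 14 tested. The shares were 28.6% lower and 7.14% higher, beside 14.7% and 15.0% of all tested genes. Dnaja1, Dnajc7 and Dnajc2, which fell, are above 100 normalized CPM, where 43.7% of all genes fell. Dnaja1, a general HSP70 partner, measured 444 and 457 normalized CPM in siNT and 373 and 383 in siCnot1 (log2 fold change -0.25, standard error 0.054, edgeR adjusted p = 9.39e-04). Dnajc7, whose repeat domains bind both HSP70 and HSP90, measured 312 and 318 against 259 and 267 (log2 fold change -0.26, edgeR adjusted p = 9.07e-04). Dnajc2 and Hspa14 form the ribosome-associated pair that meets nascent chains, and both were lower. Dnajc2 went from 210.005 and 218 to 175 and 169.985 normalized CPM (log2 fold change -0.31, edgeR adjusted p = 2.08e-04), while Hspa14 went from 192 and 189 to 164 and 177 (log2 fold change -0.16, edgeR adjusted p = 0.0414). The call of Hspa14 was lost under upper-quartile scaling, library totals, no filter on low counts, the replicate block, the study's threshold and the omission of any 1 library, with log2 fold changes from -0.22 to -0.06 and edgeR adjusted p up to 0.508 over the alternatives. Dnajb4 was the fourth J-protein to fall, at 12.1 and 13.5 against 9.52 and 8.67 (log2 fold change -0.49, edgeR adjusted p = 0.00974), and its call was lost with no filter and without any 1 library (edgeR adjusted p up to 0.144). Dnajb1, the stress-inducible J-protein, lay at 73.0 and 76.4 against 70.1 and 68.9, where the libraries did not overlap but the test was not passed (log2 fold change -0.10, edgeR adjusted p = 0.291). Dnaja2 and Dnajb6, the latter a suppressor of protein aggregation, were abundant and overlapped between groups, with log2 fold changes of -0.08 and -0.01. Both turned above 0 when library totals replaced TMM, to 0.03 and 0.10.

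Small heat shock proteins hold unfolding proteins without ATP, and Hspb8 showed the largest decrease of any member. Hspb8, the partner of BAG3 in chaperone-assisted autophagy (chromosome 5, 116546550 to 116560923, minus strand), had 32.8 and 35.7 normalized CPM in siNT and 16.5 and 16.2 in siCnot1, which is 47.8% of the control mean. The groups were far apart beside the spread within them (log2 fold change -1.06, standard error 0.103, edgeR adjusted p = 5.74e-08). Hspb1, the abundant small heat shock protein of ESCs, had 464 and 426 against 371 and 408, a smaller change without overlap (log2 fold change -0.19, edgeR adjusted p = 0.0179). That call was lost under library totals, no filter, the study's threshold and without siNT replicate 1, siNT replicate 2 or siCnot1 replicate 1, with log2 fold changes from -0.27 to -0.08 and edgeR adjusted p up to 0.314 over the alternatives. Hspb2, Hspb6 and Hspb7 were at or under 2.03 normalized CPM in every library and were not called. Bag3 itself, an HSF1 target outside the family, measured 53.3 and 56.0 against 53.9 and 59.7 with overlapping groups.

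The 3 cytosolic genes that rose had low levels. Hspa1a, one of the classic heat-inducible HSP70 genes (chromosome 17, 35188335 to 35191132, minus strand), had 64 and 68 counts in siNT and 98 and 134 in siCnot1, or 2.06 and 2.17 against 2.93 and 4.005 normalized CPM (log2 fold change 0.71, standard error 0.27, edgeR adjusted p = 0.0497). Its neighbour Hspa1b (35175405 to 35178214) encodes a nearly identical mRNA, so reads may have been divided between them, and it had 214 and 170 counts against 217 and 217 (log2 fold change 0.08, edgeR adjusted p = 0.806). Summed, the pair had 278 and 238 counts in siNT and 315 and 351 in siCnot1, or 8.26 ± 0.950 against 9.95 ± 0.768 normalized CPM (SD, n = 2 libraries), and the sum was not called in the fit over all genes (log2 fold change 0.27, standard error 0.154, edgeR adjusted p = 0.208). Hspa12a, an atypical HSP70, rose from 13.1 and 13.0 to 16.0 and 17.6 (edgeR adjusted p = 0.0263), and Dnajb2, a J-protein with ubiquitin-binding motifs, rose from 9.29 and 10.1 to 13.5 and 12.3 (edgeR adjusted p = 0.0265). DESeq2 called 0 of these 3 genes, and none was called when any 1 library was left out.

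The cytosolic calls were counted at 2 expression levels. At a mean of 100 normalized CPM or more over the 4 libraries there were 12 cytosolic members, of which 10 fell and 0 rose (also 0 at an unadjusted p under 0.05, and 0 by DESeq2 and limma-voom), with a median log2 fold change of -0.26. All 12 lay below 0 under TMM, and 10 of them under library totals. Among all 2447 genes at that level 43.7% fell and 12.2% rose with a median of -0.12, where all tested genes without regard to level gave 14.7% and 15.0%. Below that level 20 cytosolic members were tested, 2 fell and 3 rose, with a median of -0.13 beside 0.04 over all genes there. These calls are 10% and 15% of the members at the lower level, where 10.2% of all genes fell and 15.4% rose, so the shares there were close to the background. For the cytosolic set the 12 lower calls became 6 to 10 when each library in turn was left out, lowest without siNT replicate 2, and 8 without siNT replicate 1 or siCnot1 replicate 1.

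**Figure D2:**
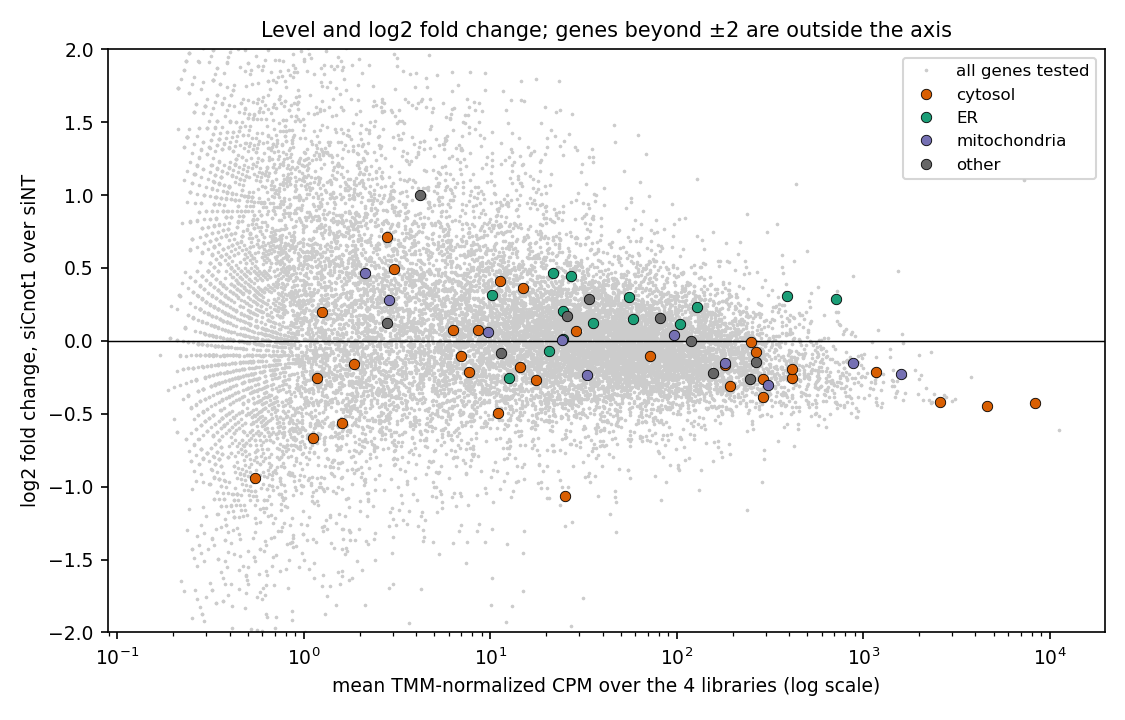
Mean normalized CPM over the 4 libraries (horizontal log axis) against log2 fold change of siCnot1 over siNT (vertical axis); grey points are all tested genes within the axis, coloured points the 66 tested chaperone genes by compartment. Cytosolic genes at 100 normalized CPM or more lie under 0 (median -0.26), where all genes at that level have a median of -0.12, while the ER genes Hspa5 and Hsp90b1 lie above 0 at a like level.

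Summed over all its genes, the cytosolic set made up 2.12% and 2.08% of all counts in siNT and 1.71% and 1.75% in siCnot1. In normalized CPM the sums were 21992 and 21581 against 16392 and 16949. Hsp90ab1 alone gave 42.0% to 44.4% of them. Without Hsp90ab1 the sums were 12237 and 12327 against 9500 and 9676, so the groups stayed apart without the leading gene. These sums still hold Hsp90aa1 and Hspa8, at 5348 and 2924 normalized CPM in siNT replicate 1. They therefore say little of the less abundant members.

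ER chaperones went the other way, with 6 of 14 genes higher, 42.9% beside 15.0% of all tested genes. None of the 14 was called lower by edgeR, DESeq2 or limma-voom, nor at an unadjusted p under 0.05 (0 in each case), and 12 of the 14 had a log2 fold change above 0 with a median of 0.22. Some promoters of these genes hold the ER stress response element (ERSE, the letters CCAAT and CCACG with 9 bases between them), through which the UPR factors are known to act. Promoter windows from RefSeq (GRCm38.p6, 250 bases before to 50 after the start of transcription) matched 57 of the 70 members by symbol. On either strand ERSE occurred in 3 of the 12 matched ER genes and in 0 of the 45 other matched members, against 0.137% of all 27025 genes with a window. A related element, ERSE-II (ATTGG and CCACG with 1 base between them), occurred in Dnajb11 among the members and in 0.0444% of all genes, and the core of the UPR element (TGACGTGG) in Dnajc25 and in 0.714% of all genes. The 30-base stretches are shown because, among the matched members, ERSE and ERSE-II were found in ER genes only. Capitals mark the fixed letters of the element, each sequence is read on the strand of its gene, and the second Hsp90b1 site holds the element on the opposite strand.
Hspa5, chr2:34772020-34772049, plus strand: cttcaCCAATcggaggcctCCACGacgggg
Hsp90b1, chr10:86705632-86705661, minus strand: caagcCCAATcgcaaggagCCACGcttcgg
Hsp90b1, chr10:86705527-86705556, minus strand: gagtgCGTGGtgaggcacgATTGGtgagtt
Dnajc3, chr14:118937822-118937851, plus strand: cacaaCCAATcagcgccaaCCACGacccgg
Dnajb11, chr16:22857843-22857872, plus strand: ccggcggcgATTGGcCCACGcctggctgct

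The element of Hspa5 begins 65 bases upstream of the start of transcription, those of Hsp90b1 212 and 107 bases upstream, and that of Dnajc3 105 bases upstream. In Dnajb11 it begins 7 bases downstream. A match is a description of the letters only, and binding was not measured.

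Hspa5 encodes BiP, the HSP70 of the ER lumen and master regulator of the UPR sensors (GRCm39 chromosome 2, 34662102 to 34666541, plus strand). Its level was 349 and 349 normalized CPM in siNT and 448 and 418 in siCnot1, 124% of the control mean, with both siCnot1 libraries above both siNT libraries (log2 fold change 0.31, standard error 0.0555, edgeR adjusted p = 1.61e-04). Hsp90b1 encodes GRP94, the HSP90 of the ER (chromosome 10, 86526705 to 86541308, minus strand). It was at 652 and 632 against 824 and 742, 122% of the control mean and also without overlap (log2 fold change 0.29, standard error 0.0571, edgeR adjusted p = 4.84e-04). The HSP70 and the HSP90 of the ER rose where their cytosolic paralogs Hspa8, Hsp90aa1 and Hsp90ab1 fell.

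The ER J-proteins with the ERSE or ERSE-II letters were not called. Dnajc3, which encodes the BiP partner p58IPK, measured 52.0 and 58.5 normalized CPM in siNT and 61.3 and 61.5 in siCnot1 (log2 fold change 0.15, edgeR adjusted p = 0.164). Dnajb11, whose product ERdj3 binds substrates together with BiP, measured 99.6 and 99.7 against 110.4 and 105.6 (log2 fold change 0.12, edgeR adjusted p = 0.177). Both siCnot1 libraries were above both siNT libraries for each gene, by a margin the test did not call. Dnajb9, whose product ERdj4 is a sensitive UPR target, overlapped between groups at 21.2 and 20.9 against 21.02 and 19.1 (log2 fold change -0.07, edgeR adjusted p = 0.691), and this small value turned to 0.04 under library totals.

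The 4 ER J-proteins that rose were Dnajc10, Dnajc14, Dnajc16 and Dnajc18. Dnajc10 encodes ERdj5, a disulfide reductase that works in ER-associated degradation, and measured 116 and 118 normalized CPM in siNT and 141 and 135 in siCnot1 (log2 fold change 0.23, standard error 0.0612, edgeR adjusted p = 0.00519). Dnajc16, an ER transmembrane J-protein, measured 23.0 and 22.9 against 29.5 and 33.1 (log2 fold change 0.45, standard error 0.101, edgeR adjusted p = 0.00166). Dnajc18, another transmembrane J-protein, measured 18.1 and 18.4 against 24.1 and 26.3 (log2 fold change 0.46, standard error 0.106, edgeR adjusted p = 0.00187). Groups did not overlap for these genes, nor for Dnajc14, which helps receptors leave the ER and measured 52.2 and 46.7 against 60.5 and 61.1 (edgeR adjusted p = 0.00749). Of the ER members not called, Dnajc1, Dnajc25 and Hspa13 had log2 fold changes of 0.20, 0.32 and 0.12 with libraries that did not overlap, Dnajb12 was at 0.01, and the ER membrane J-protein Dnajb14 was at -0.26 (edgeR adjusted p = 0.147).

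Leaving out single libraries removed calls over all genes, and ER calls with them. The 6 higher calls became 0 without siNT replicate 1, 1 without siNT replicate 2 and 3 without either siCnot1 library, where a group of 1 library was assumed to vary like the other group. The summed ER level was 1486 and 1472 normalized CPM in siNT and 1832 and 1710 in siCnot1, or 0.143% and 0.142% of all counts against 0.191% and 0.176%, and without Hsp90b1, its largest gene, the sums were 834 and 840 against 1008 and 968.

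**Figure D3:**
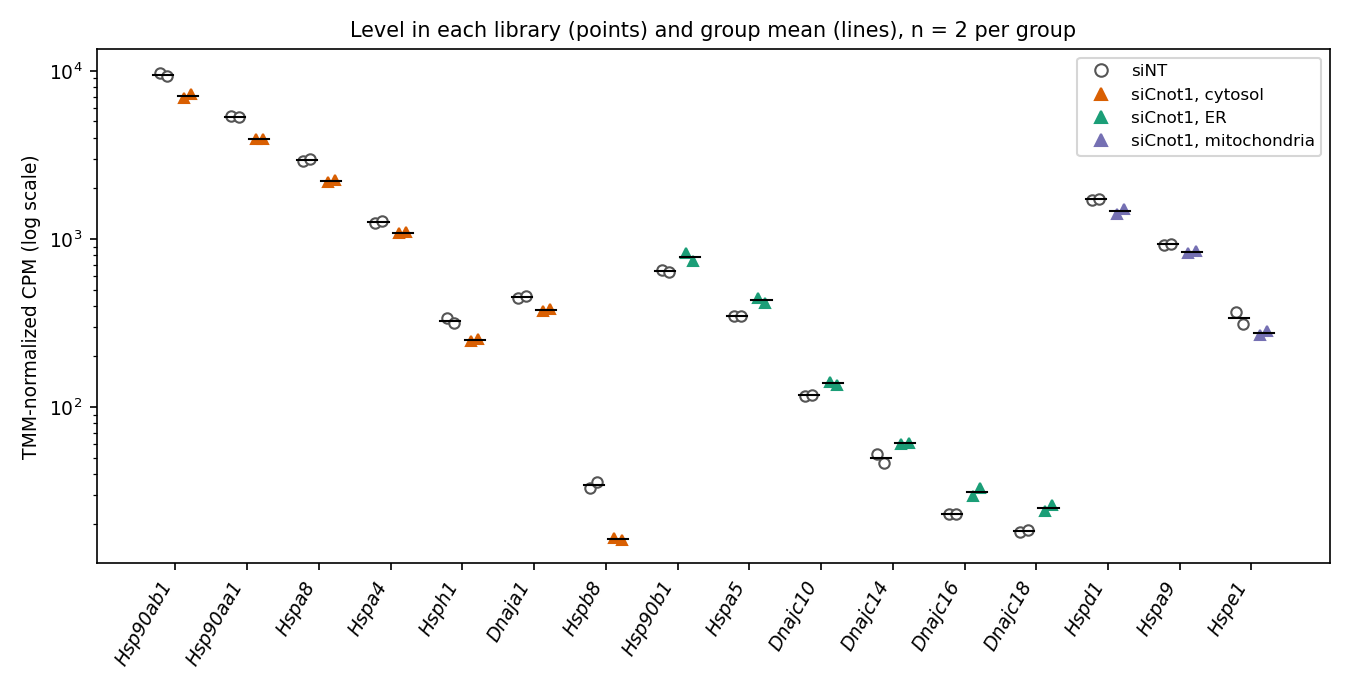
Normalized CPM (vertical log axis) of 16 chaperone genes in each library; open circles are the siNT libraries, triangles the siCnot1 libraries coloured by compartment, and short lines the group means (n = 2). Each of the 16 genes was called and changed in the main direction of its compartment, but not every such gene is shown. The lack of overlap and the split by compartment in this figure follow from that choice. The cytosolic genes called higher (Hspa1a, Hspa12a and Dnajb2) and all uncalled members are left out. Also left out are the cytosolic genes Hspb1, Hspa14, Dnajc2, Dnajc7 and Dnajb4, which were called lower, and the members placed elsewhere. Cytosolic and mitochondrial triangles lie under the circles (Hsp90aa1 at 73.5% of the control mean, Hspd1 at 85.2%) and ER triangles above them (Hspa5 at 124%).

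Of the 10 mitochondrial members, the 3 that fell, Hspd1, Hspe1 and Hspa9, are the core of folding in the matrix, and 0 rose (0 also at an unadjusted p under 0.05, and by DESeq2 and limma-voom). The 3 are 30% of the tested mitochondrial members beside 14.7% of all tested genes that fell, and all 3 are above 100 normalized CPM, where 43.7% of all genes fell with a median log2 fold change of -0.12. Hspd1, which encodes HSP60 (chromosome 1, 55116992 to 55127402, minus strand), measured 1713 and 1720 normalized CPM in siNT and 1410 and 1516 in siCnot1 (log2 fold change -0.23, standard error 0.053, edgeR adjusted p = 0.00186). Hspe1, which encodes its lid HSP10 (chromosome 1, 55127307 to 55130476, plus strand), measured 369 and 312 against 269 and 283 (log2 fold change -0.30, standard error 0.0658, edgeR adjusted p = 0.00117). Hspa9, the mitochondrial HSP70 called mortalin, measured 922 and 935 against 827 and 846 (log2 fold change -0.15, standard error 0.052, edgeR adjusted p = 0.0309, and up to 0.540 over the alternatives). In each of the 3 genes the siCnot1 libraries lay under the siNT libraries. The count of 3 became 1 under library totals, where Hspe1 stayed called and Hspd1 had an edgeR adjusted p of 0.0563. It was 0 without siNT replicate 1 or siCnot1 replicate 1, 1 without siNT replicate 2 and 2 without siCnot1 replicate 2.

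Hspd1 and Hspe1 stand head to head and are transcribed from 1 shared promoter in opposite directions. The heat shock element (HSE, the letters GAA, TTC and GAA with 2 bases between neighbours, on either strand) occurred in the windows of 4 members, Hspd1, Hspe1, Hsph1 and Dnajb6, against 0.662% of all genes with a window, and in 0 of the 12 ER genes. Of the 30 matched cytosolic genes 2 held the element. The HSF1 targets Hspa1a, Hspa1b, Dnajb1, Dnaja1 and Hspb1 had a window without it. Of the 4 genes with the element 3 fell, all above 100 normalized CPM, where 43.7% of all genes fell. The fourth, Dnajb6, was not called. Whether the element goes with a fall was not tested. The stretches of all 4 genes are shown, and Hspd1 and Hspe1 share the site. Each gene has 1 match shown, a further match overlaps it in Hspd1 and Hspe1, and in Hsph1 the same letters are read in the windows of 2 start sites. Capitals mark the fixed letters, with the element on the opposite strand in Hspd1 and Hsph1.
Hspe1, chr1:55088056-55088085, plus strand: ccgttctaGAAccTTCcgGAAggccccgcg
Hspd1, chr1:55088055-55088084, minus strand: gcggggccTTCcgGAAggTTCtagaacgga
Hsph1, chr5:149636279-149636308, minus strand: gctgcagaTTCtgGAAagTTCtcctcagta
Dnajb6, chr5:29735844-29735873, plus strand: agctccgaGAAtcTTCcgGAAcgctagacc

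Coordinates are those of GRCm38.p6. The element shown begins 84 bases upstream of the start of Hspe1 and 144 bases upstream of that of Hspd1, and the capitals in both lines are the same bases of the promoter read on the 2 strands. Hsp90aa1, Hsp90ab1, Hspa8 and Hspa9 were among the 13 members with no matched window. The gene models of Hspd1 and Hspe1 also overlap at their starts, and a processed copy of Hspd1, Hspd1-ps3, had 1001 and 1092 counts in siNT and 1145 and 958 in siCnot1, overlapping between groups. How reads were shared between a gene and such a copy is not given in the sources used here.

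The remaining mitochondrial J-proteins were not called. Dnajc19, a subunit of the motor that pulls proteins through the inner membrane, measured 37.2 and 34.5 normalized CPM in siNT and 32.1 and 28.9 in siCnot1 without overlap (log2 fold change -0.23, edgeR adjusted p = 0.0738). Dnajc11, found at the outer membrane, measured 197 and 184 against 165 and 177 without overlap (log2 fold change -0.15, edgeR adjusted p = 0.0662). Dnaja3, the matrix partner of mortalin also called TID1, measured 95.7 and 95.1 against 95.0 and 101, and Dnajc15 measured 23.4 and 24.7 against 24.8 and 23.5, and the groups of both overlapped. The median of the 10 genes was -0.07 under TMM and 0.03 under library totals. Their summed level was 3371 and 3320 normalized CPM in siNT and 2839 and 2992 in siCnot1, with Hspd1 giving 49.7% to 51.8%. As a share of all counts it was 0.325% and 0.320% against 0.296% and 0.309%.

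Among the 10 members placed elsewhere, 1 rose and 2 fell, or 10% and 20% beside 15.0% and 14.7% of all tested genes. Dnajc22, a membrane-spanning J-protein, had 88 and 86 counts in siNT and 211 and 163 in siCnot1, or 2.83 and 2.74 against 6.30 and 4.87 normalized CPM, the largest increase of any member (log2 fold change 1.00, standard error 0.225, edgeR adjusted p = 0.0015). Its call was lost without siNT replicate 1, siNT replicate 2 or siCnot1 replicate 1 (edgeR adjusted p of at most 0.0793). Dnajc13, which acts on endosomes, measured 256 and 284 against 223 and 228 (log2 fold change -0.26, edgeR adjusted p = 0.00201), and Dnajc21, which acts in maturation of the large ribosomal subunit, measured 168 and 169 against 145 and 144 (log2 fold change -0.22, edgeR adjusted p = 0.00606). Besides the study's threshold, Dnajc13 lost its call under library totals, no filter and in 3 of the 4 fits without a library (edgeR adjusted p up to 0.103), and Dnajc21 under library totals and in all 4 of those fits (edgeR adjusted p up to 0.146). The spliceosome-associated Dnajc8 was at 283 and 277 against 254 and 253, without overlap and just short of the threshold (edgeR adjusted p = 0.0523). Dnajc6, the clathrin uncoating factor auxilin, overlapped between groups at 26.9 and 34.2 against 33.6 and 41.1 (edgeR adjusted p = 0.0593). Dnajc5, the cysteine string protein, lay at 117 and 123 against 117 and 122.

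Genes that work with these chaperones, but whose symbols lack the form used here, were listed by compartment as well. Being outside the symbol rule does not place a gene outside these families, and Sec63 among them has a J-domain. Of 24 cytosolic co-chaperones and heat shock factors, 14 fell and 0 rose (0 also at an unadjusted p under 0.05, and by DESeq2 and limma-voom), with a median log2 fold change of -0.18. These are 58.3% of the list beside 14.7% of all tested genes. Of the 12 listed genes at 100 normalized CPM or more 10 fell, 83.3% beside 43.7% of all genes at that level. St13, the HSP70-interacting protein HIP, fell from 544 and 529 to 364 and 360 normalized CPM (log2 fold change -0.57, edgeR adjusted p = 3.91e-08). Stip1, the HOP adaptor that passes clients from HSP70 to HSP90, fell from 701 and 690 to 551 and 553 (log2 fold change -0.33, edgeR adjusted p = 3.48e-05). Under library totals 6 of the 24 fell and 1 rose, and leaving out 1 library gave 4 lower calls (siNT replicate 1), 5 (siNT replicate 2), 6 (siCnot1 replicate 1) or 7 (siCnot1 replicate 2). The transcript of Hsf1 itself overlapped between groups, at 43.7 and 43.0 against 39.3 and 44.9.

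Of 22 genes for folding and stress sensing in the ER, 11 rose and 0 fell (0 also at an unadjusted p under 0.05, and by DESeq2 and limma-voom), all 22 had a log2 fold change above 0, and the median was 0.21. The higher calls are 50% of the list beside 15.0% of all tested genes, and 5 of its 8 genes at 100 normalized CPM or more rose, 62.5% beside 12.2% of all genes at that level. Calr, the lectin chaperone calreticulin, rose from 642 and 632 to 864 and 749 normalized CPM (log2 fold change 0.34, edgeR adjusted p = 1.49e-04). Sec63, the J-domain subunit of the translocon that the symbol rule does not take in, rose from 66.8 and 65.9 to 91.9 and 81.4 (log2 fold change 0.39, edgeR adjusted p = 3.03e-04). Of 14 mitochondrial folding and protease genes, 1 rose and 1 fell, 7.14% each and under the 15.0% and 14.7% over all tested genes. Spg7, a subunit of an inner membrane protease, rose from 94.3 and 86.6 to 121 and 127 (log2 fold change 0.46, edgeR adjusted p = 1.16e-05), and Clpx, the unfoldase of the ClpXP protease, fell from 65.3 and 66.8 to 48.5 and 55.3 (log2 fold change -0.35, edgeR adjusted p = 0.00205). In the ER list the higher calls were 1 without siNT replicate 1, 0 without siNT replicate 2, 2 without siCnot1 replicate 1 and 6 without siCnot1 replicate 2, and the mitochondrial list had 1 lower call in the last of these fits and 0 in the others. DESeq2 called 8 of the ER list higher, and library totals 17 of the ER list and 5 of the mitochondrial list. Over all called genes 71.9% were higher under library totals, against 50.5% in the main fit and 47.3% with DESeq2.

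**Figure D4:**
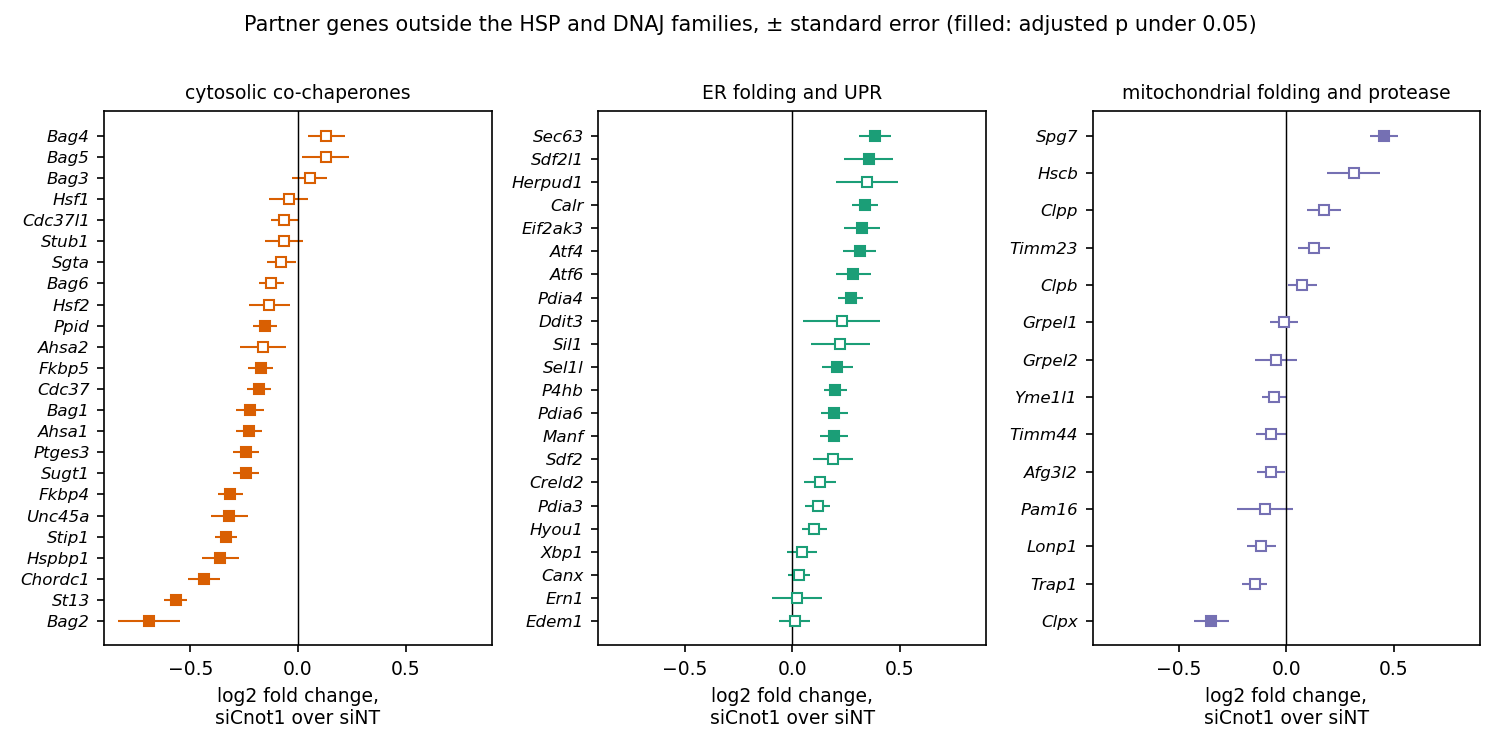
Log2 fold change of siCnot1 over siNT (horizontal axis) with standard errors for 60 partner genes that the symbol rule does not take in, in 3 lists. Filled squares have an adjusted p under 0.05. Cytosolic co-chaperones lie mostly left of 0 (21 of 24, 14 filled), ER genes all right of it (22 of 22, 11 filled), and mitochondrial genes on both sides.

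Grouped by regulator in place of compartment, the list medians split in the same direction. A list of 16 textbook HSF1 targets, 12 of them members, had 10 genes lower and 1 higher (Hspa1a), with a median of -0.24. The other 5 (Hspa1b, Dnajb1, Hspa4l, Bag3 and Ahsa2) were not called, at log2 fold changes from -0.18 to 0.08. Of the genes described above as heat- or stress-inducible, Hsp90aa1 was lower, Hspa1a higher and Dnajb1 not called. The lower genes are 62.5% of the list beside 14.7% of all tested genes, and all 10 are at 100 normalized CPM or more, where 43.7% of all genes fell with a median of -0.12. A list of 18 textbook UPR targets, 7 of them members, had 9 genes higher and 0 lower (0 at an unadjusted p under 0.05, and by DESeq2 and limma-voom), with a median of 0.20, and the higher genes are 50% of the list beside 15.0% of all tested genes. These lists overlap the compartments and are no independent evidence of the direction. Under DESeq2 the UPR count was 6. The UPR count was 1 without siNT replicate 1 or siNT replicate 2, 2 without siCnot1 replicate 1 and 6 without siCnot1 replicate 2. The HSF1 count of lower genes ranged from 6 to 10 over the same omissions, lowest without siNT replicate 2. The 3 sensors of ER stress did not all change. Eif2ak3, which encodes PERK, rose from 47.3 and 46.7 to 61.8 and 55.9 normalized CPM (log2 fold change 0.32, edgeR adjusted p = 0.00427), and Atf6 rose from 53.3 and 51.1 to 67.7 and 59.5 (log2 fold change 0.28, edgeR adjusted p = 0.0103). Ern1, which encodes IRE1, overlapped between groups at 16.1 and 16.9 against 17.8 and 15.8 (log2 fold change 0.02, edgeR adjusted p = 0.912). Splicing of Xbp1 mRNA by IRE1, a known step of the UPR, cannot be read from counts per gene.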

How the data were processed

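Poly(A)+ RNA-seq was made for 2 siNT and 2 siCnot1 cultures. The authors deposited raw counts per gene, not normalized and not pooled, with exon lengths. Per the labels, the processing notes name fastp 0.19.4, HISAT2 2.2.1, DESeq2 1.40.2 and mm10, but the gene positions in the table are those of GRCm39. The counting program and its strand setting are not given in the sources used here. Counts were fitted with edgeR 4.0.16 in R 4.3.3 (filterByExpr with a minimum count of 10, TMM, quasi-likelihood test, condition as the only term), with Benjamini-Hochberg adjustment over 18144 genes. Standard errors were taken as the size of the log2 fold change over the root of the F statistic. Alternatives were other scalings and filters, DESeq2 1.42.0, limma-voom 3.58.1, the study's threshold (p of at most 0.05 and 2-fold), a replicate block and leaving out each library. On simulated counts of these 18144 genes, edgeR recovered 66% of 200 genes changed 2-fold, with 5 false calls. Named genes were 20 preset members, the 5 smallest adjusted p per compartment, members past 2-fold, and the 2 smallest adjusted p per direction in each partner list; members beyond these were named after their values were seen, as were Bag3, Hsf1, Atf6, Eif2ak3, Ern1 and Hspd1-ps3. Members, compartments and lists were chosen with earlier results of these data known. RefSeq promoters were joined by symbol only. Intervals and the 3-count floor cover counting error only.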

Additional observations from a re-analysis of the deposited data

How the results depend on the processing

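All 27 called chaperone genes kept their direction under every alternative run. This outcome could hardly have differed and is no check on the calls. The groups did not overlap in any of the 27 genes, so omitting a single library could hardly reverse a sign. Rescaling shifted genes nearly alike, by less than the smallest called change (log2 fold change -0.15, Hspa9). Of the 27 genes, 6 (Hspb8, Hsp90aa1, Hsp90ab1, Hspa8, Hsph1 and Dnajc2) kept their call under each run except the study's threshold. In simulated counts of this design 132 of 200 genes changed 2-fold were recovered. The simulation changed 200 of 18144 genes at all levels, where 5387 were called in the data. Its recovery is therefore not that of the chaperone genes here. Most changes here were smaller than 2-fold, and an uncalled gene cannot be read as unchanged. Main counts, higher and lower, were 2719 and 2668 for all genes, 10 and 17 for chaperone genes, 3 and 12 in the cytosol, 6 and 0 in the ER, 0 and 3 in mitochondria, 12 and 15 for the 60 partner genes, 1 and 10 for HSF1 targets, and 9 and 0 for UPR targets. Where not stated otherwise, the cause of a moved count was not tested.

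Under library totals, which shift every gene upward, 71.9% of all calls were higher and all lower calls were 1563. Chaperone calls were 17 higher and 10 lower, ER higher calls 10, mitochondrial lower calls 1, partner calls 23 and 7, and UPR higher calls 14. With no filter on low counts, which adjusts over more genes, all calls were 1303 and 1450, chaperone calls 6 and 11, cytosolic higher calls 0, mitochondrial lower calls 1, partner calls 6 and 6, HSF1 higher calls 0 and UPR higher calls 5. At the study's threshold, which demands 2-fold, all calls were 1121 and 326 (6.18% and 1.80% of tested genes), chaperone calls 1 and 1 (Dnajc22 and Hspb8), cytosolic calls 0 and 1, ER higher calls 0, mitochondrial lower calls 0, partner calls 0 and 0, HSF1 calls 0 and 0, and UPR higher calls 0. DESeq2 gave 0 cytosolic higher calls. DESeq2, DESeq2's size factors and limma-voom gave 0 HSF1 higher calls, and upper-quartile scaling gave 2 mitochondrial lower calls.

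Leaving out each library in turn, with 1 library assumed to vary like the other group, gave 743 to 1439 higher and 871 to 1463 lower calls over all genes, 0 to 4 and 7 to 12 among chaperone genes, 0 higher and 6 to 10 lower in the cytosol, 0 to 3 higher in the ER, 0 to 2 lower in mitochondria, 1 to 7 and 4 to 8 among partner genes, 0 higher and 6 to 10 lower among HSF1 targets and 1 to 6 higher among UPR targets. The summed Hspa1a and Hspa1b log2 fold change stayed between 0.15 and 0.38 and was never called. With the replicate number as a block, 25 chaperone genes were called, 24 of them shared with the 27, with 10 higher and 15 lower, 0 HSF1 higher calls and 2 mitochondrial lower calls; the correlation of deviations between same-numbered libraries was 0.0109 over genes, so the numbers were not taken as pairs.

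Members that changed sign were all uncalled. Under library totals the log2 fold change was 0.00308 for Dnajb1, 0.031 for Dnaja2, 0.00405 for Dnajc12, 0.0978 for Dnajb6, 0.0394 for Dnajb9, 0.0224 for Dnajc17 and 0.107 for Dnajc5. Upper-quartile scaling gave 0.0103 for Dnajb6 and 0.019 for Dnajc5, and the filter of 1 CPM in 2 libraries 0.00121 and 0.00997. Dnajc15 was at -0.000177 with DESeq2's size factors, -0.000174 with DESeq2 and -0.00157 with no filter. Leaving out each library in turn, the log2 fold change ranged from -0.566 to 0.0653 for Dnajb13, -0.0584 to 0.197 for Dnajb5, -0.275 to 0.041 for Dnajc12, -0.0080 to 0.39 for Hspa12b, -0.833 to 0.29 for Hspa1l, -0.0872 to 0.251 for Hspa1b, -0.0722 to 0.0425 for Dnajb6, -0.0757 to 0.103 for Dnajb12, -0.0119 to 0.0788 for Dnaja3, -0.070 to 0.194 for Dnajc4, -0.0378 to 0.0419 for Dnajc15, -0.166 to 0.477 for Hspb11 and -0.0413 to 0.0344 for Dnajc5.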
